A study of Mus musculus with 3 samples.

Results

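Levels of 10 genes of glycolysis and of phosphate energy transfer were measured across the cell types of the mouse cochlea. The genes, *Hk1*, *Aldoa*, *Aldoc*, *Gapdh*, *Pgk1*, *Eno1*, *Eno2*, *Ldha*, *Ldhb* and *Ckb*, were chosen by symbol from the 32285 features of the series. They take 11 features, since *Aldoa* stands on 2, of which the lesser held 1 UMI in all 3 libraries and was added to the other. The data are 10x Genomics single-cell libraries of dissociated cochleae from C57/B6 mice, with no treatment and no genetic alteration in any group. There was 1 library at P14 (14 days of age) and there were 2 libraries at P28 (28 days), named replicate 1 and replicate 2. Each library pooled 14 cochleae of 7 mice, so no value belongs to a single animal, and the sensory epithelium came mainly from the upper basal to the apical turns. The study profiled how cochlear cells mature between these ages.

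Glycolysis splits glucose into pyruvate and yields ATP without oxygen. Hexokinase traps glucose in the cell, aldolase splits the sugar phosphate, and the enzymes below it recover ATP on the way to pyruvate. Some steps have isozymes from separate genes, of which *Aldoc* and *Eno2* are known as brain forms. Lactate dehydrogenase interconverts pyruvate and lactate, with *Ldha* known as the subunit that favours lactate and *Ldhb* as the one that favours pyruvate. Brain-type creatine kinase, encoded by *Ckb*, passes phosphate between ATP and creatine and so buffers ATP where its use is fast. Hair cells are the sensory cells of the cochlea and spiral ganglion neurons carry their signal to the brain, and both are known for a high demand for ATP.

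The sequences shown are promoters of the lactate dehydrogenase and enolase pairs, since these pairs hold *Eno2* and *Ldha*, the genes of the 10 with the largest differences between neurons and other cells. Each line holds the 250 bases upstream of a transcription start of RefSeq (GRCm38.p6), read 5′ to 3′ on the strand of the gene. Where a gene had several starts the window with the most matches of ACGTG is shown. The windows of *Eno1* tied at 0 matches, and the one farthest upstream is shown. Capitals mark ACGTG on either strand, core letters of the element that hypoxia-inducible factors bind.
Ldha, chr7:46845554-46845803, + strand: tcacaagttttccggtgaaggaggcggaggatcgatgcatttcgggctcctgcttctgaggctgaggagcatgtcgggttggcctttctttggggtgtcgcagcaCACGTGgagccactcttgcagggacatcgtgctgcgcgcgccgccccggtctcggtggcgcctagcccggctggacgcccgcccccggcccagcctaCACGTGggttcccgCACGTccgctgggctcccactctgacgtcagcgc
Ldhb, chr6:142507958-142508207, - strand: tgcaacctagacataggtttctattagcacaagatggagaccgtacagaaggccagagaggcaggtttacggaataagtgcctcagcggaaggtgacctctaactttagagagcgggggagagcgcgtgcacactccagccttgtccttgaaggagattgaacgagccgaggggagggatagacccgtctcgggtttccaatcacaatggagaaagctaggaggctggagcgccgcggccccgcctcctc
Eno1, chr4:150236458-150236707, + strand: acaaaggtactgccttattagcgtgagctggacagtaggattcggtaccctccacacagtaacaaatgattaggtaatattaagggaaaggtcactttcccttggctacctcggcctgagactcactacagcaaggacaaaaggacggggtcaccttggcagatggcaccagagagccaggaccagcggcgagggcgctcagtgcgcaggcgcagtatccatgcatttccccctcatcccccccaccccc
Eno2, chr6:124769674-124769923, - strand: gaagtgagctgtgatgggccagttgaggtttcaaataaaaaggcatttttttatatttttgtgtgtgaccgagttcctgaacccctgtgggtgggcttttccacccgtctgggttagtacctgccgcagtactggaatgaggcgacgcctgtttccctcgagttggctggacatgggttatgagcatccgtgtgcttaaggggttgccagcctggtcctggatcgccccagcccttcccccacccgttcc

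All 10 genes matched this promoter set, with 17 windows. The *Ldha* window shown held 5 matches of ACGTG over both strands, where CACGTG reads the same on both strands and counts on each. The windows of *Ldhb*, *Eno1* and *Eno2* shown held 0. Over all 32851 windows of this length 16.6% held ACGTG, against 4 of the 17 windows of the 10 genes (23.5%). The variant GCGTG stood in 28.2% of all windows and in 9 of the 17 (52.9%), those of *Ldhb* and *Eno1* shown among them. A match is a description of the letters and no site was measured. In GRCm38 *Ldha* lies at chr7:46841475-46855627, *Ldhb* at chr6:142490249-142507957, *Eno1* at chr4:150236721-150248879 and *Eno2* at chr6:124760053-124769673.

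Of the barcodes, 1662 of 2513 at P14 and 5651 of 11948 and 7065 of 18196 at P28 had 200 to 6000 genes and at most 15% mitochondrial UMIs and were kept. The median depth was 2477 UMIs per kept cell at P14 and 2421 and 2037 at P28, and pairs of libraries shared 4, 7 and 10 kept barcodes. Cells were clustered with the 10 genes and the pathway genes left out of the clustering, and clusters were named from markers as OHC-like (outer hair cell), IHC-like (inner hair cell), SGN-like (spiral ganglion neuron), SC/SGC-like (Schwann or satellite glial cell) and other classes. There were 277 OHC-like cells at P14 and 367 and 285 at P28, 60 IHC-like cells at P14 and 113 and 76 at P28, and SGN-like cells at P28 only, 334 and 304. In counts per 1000000 UMIs of a class (CPM), OHC-like cells had a sum of 37325, 23272 and 23449.5 over the 6 OHC markers, where IHC-like cells had 436, 467 and 570.1. The 5 IHC markers summed to 9298, 8851 and 9059.8 in IHC-like cells and to 466, 843 and 779 in OHC-like cells. The 27 P14 cells that met the SC/SGC rule, cluster 18 of P14, had *Mbp*, *Mobp* and *Cnp* among their leading genes. Their leading genes go against the name, so they were not compared as a class, though they remained among the P14 cells other than hair cells and among the class sums of the correlations. Cluster 6 of P28, 593 cells led by *Fxyd2*, *Kcnk2*, *Gjb2* and *Hhatl*, stayed unnamed.

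Levels are given in the same unit, as CPM of a class in a library. A UMI stands for 1 molecule caught at its 3′ end, so gene length does not enter. Levels of different genes are set on this 1 scale, though reads of near-identical gene copies cannot always be told apart. A level is a mean over the cells of a class, and fewer cells with the transcript and less transcript per cell give the same value. The 10 genes together took 6448 and 6046 CPM in SGN-like cells of the P28 libraries, the highest sums of any class. Unnamed cluster 6 had 5751 and 5171 CPM and SC/SGC-like cells of P28 had 3463 and 3300.4. OHC-like cells had 2779, 1026 and 1013 CPM and IHC-like cells 3779, 1514 and 1559 CPM at P14 and in the P28 replicates, so that in both hair cell classes the P14 library lay above both P28 libraries. This order was not particular to hair cells. All cells that were neither hair cells nor SGN-like had 2714, 1985 and 1886 CPM together. Of the classes present at both ages only the *Abcc9* mesenchymal-like cells were lowest at P14, with 1176, 1696 and 1535 CPM.

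**Figure D1:**
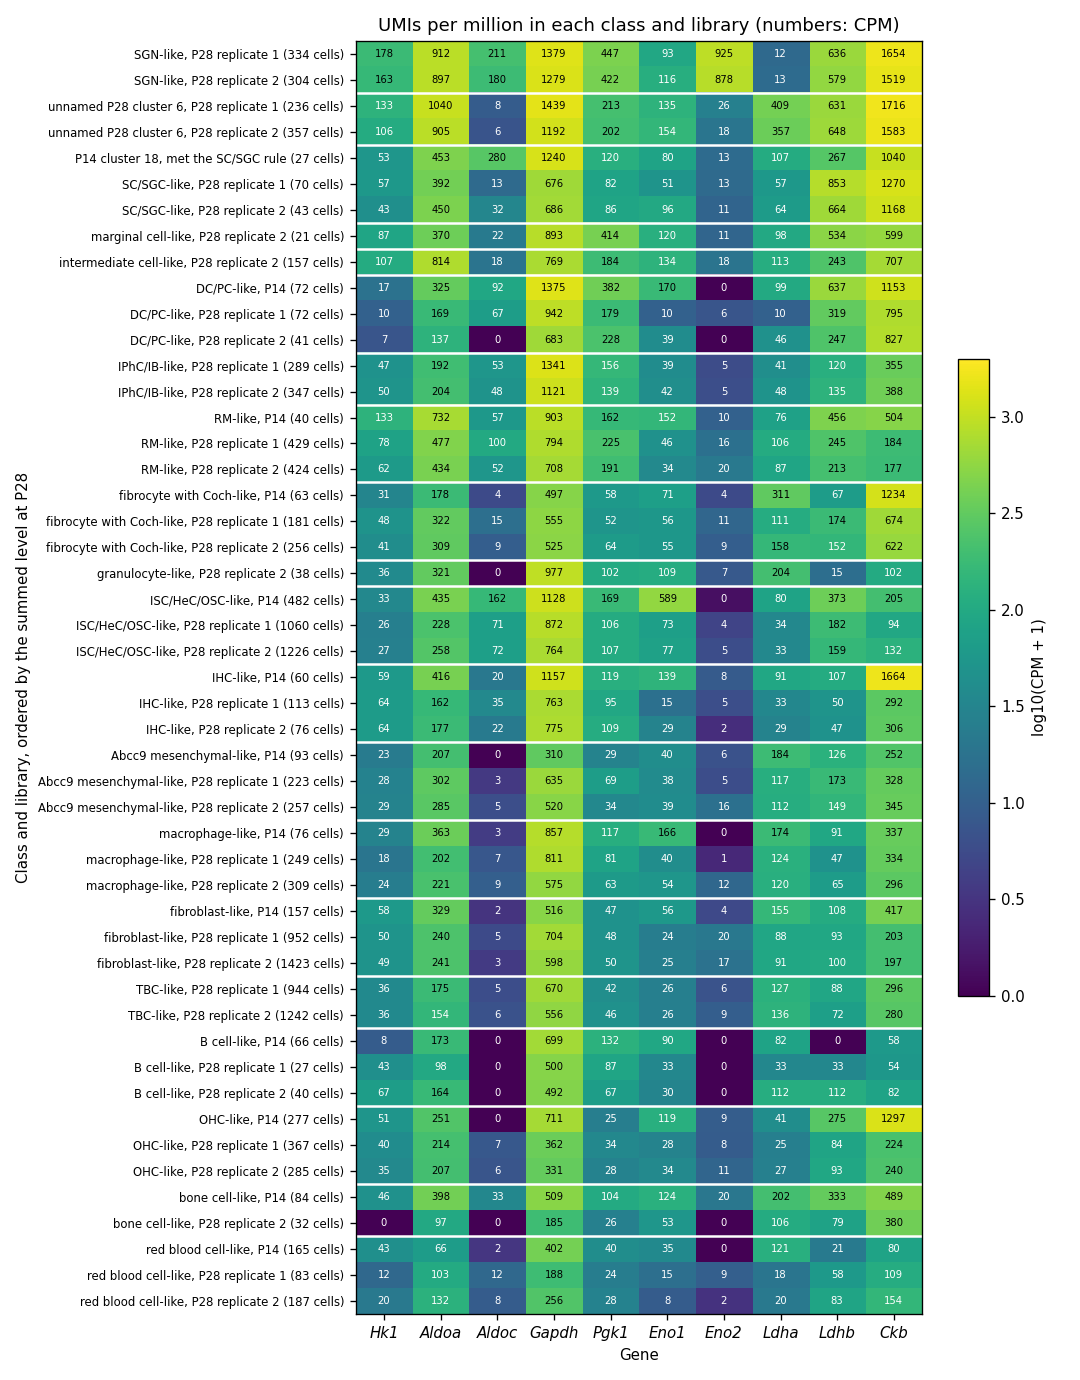
Levels of the 10 genes (x axis) in every class and library with at least 20 cells (y axis), as log10(CPM + 1) in colour and as CPM in numbers, with classes ordered by their summed level at P28. The SGN-like lines at the top stand out by *Eno2*, at 925 and 878 CPM. Their *Ldha* is low too, at 12.3 and 13.2 CPM, though DC/PC-like cells (Deiters and pillar) of P28 replicate 1 lie lower, from few UMIs.

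Classes were compared in 5 ways on UMI sums per class and library, with edgeR's quasi-likelihood test and Benjamini-Hochberg adjustment over all genes tested at a threshold of 0.05. The hair cell classes were compared with each other and with the cells other than hair cells over 3 libraries, with the library as a block. SGN-like cells were compared over the 2 P28 libraries with other cells (neither hair cells nor SGN-like) and with SC/SGC-like cells. Of the 9 genes with enough UMIs, 1 was higher and 3 were lower in OHC-like than in IHC-like cells, where 16.8% and 17.1% of all genes tested were called in these directions. The 4 genes called were *Ldhb*, higher, and *Aldoc*, *Gapdh* and *Pgk1*, lower. Read against the 33.9% of all genes called in either direction, the 4 of 9 were near the background. Without the library as a replicate block the counts were 0 higher and 1 lower, without the P14 library 3 and 5, and without P28 replicate 1 they were 1 and 1. Over all genes, too, fewer were called without the block and more without the P14 library, as given below.

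Against the cells other than hair cells, 0 of the 10 genes were higher and 6 were lower in OHC-like cells, where 23.9% and 29.9% of all genes were called (53.8% in either direction). These were *Aldoa*, *Aldoc*, *Gapdh*, *Pgk1*, *Eno1* and *Ldha*. The 6 became 2 without P28 replicate 1, 3 without P28 replicate 2, 10 without the P14 library and 4 without the replicate block. In IHC-like cells 0 were higher and 6 lower (13.3% and 22.4% of all genes, 35.7% together), namely *Aldoc*, *Pgk1*, *Eno1*, *Eno2*, *Ldha* and *Ldhb*. The 6 became 3 without P28 replicate 1, 4 without P28 replicate 2, 9 without the P14 library and 3 without the replicate block. Of the fits with 1 library left out, the one without the P14 library also called the most genes over all, as given below. This holds for OHC-like and IHC-like cells, so these moves of the counts are not read as a trait of the 10 genes. In both comparisons, fitted over the 3 libraries, edgeR gave all 10 genes a log2 fold change below 0. A looser p threshold could therefore not call any of them higher, and the count of 0 at an unadjusted p under 0.05 adds nothing. DESeq2 also called 0 higher. Under the stricter limits on genes and UMIs per cell, given below, 1 of the 10 was called higher in IHC-like cells. In SGN-like cells 9 of the 10 genes were higher and 1 was lower than in other cells (36.2% and 42.4% of all genes, 78.6% together), with a median log2 fold change of 1.76 against -0.15 over all genes. The gene lower there was *Ldha*. Against SC/SGC-like cells 7 were higher and 1 was lower (24.5% and 18.1% of all genes, 42.6% together), with medians of 1.08 and 0.28. The genes not called were *Eno1* and *Ldhb*. Where every sum had to hold 10 UMIs, 3 were higher and 0 lower, since *Aldoc*, *Eno2* and *Ldha* were among those too low to test.

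**Figure D2:**
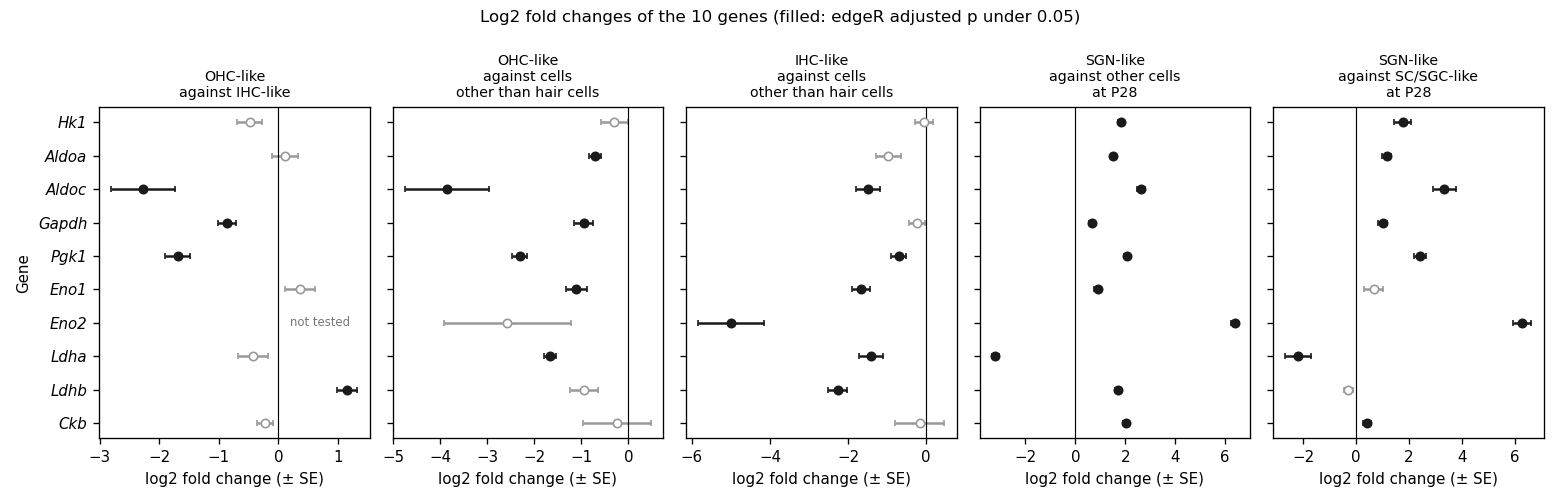
Log2 fold changes with SE (x axis) of the 10 genes (y axis) in the 5 comparisons, filled where edgeR's adjusted p was under 0.05. In SGN-like against other cells all genes but *Ldha* lie to the right of 0, with *Eno2* farthest at 6.38.

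*Hk1* encodes a hexokinase bound to mitochondria. It was at 178 and 163 CPM in SGN-like cells and at 44.1 and 45.0 CPM in other cells of the same libraries. The ranges lay apart, with a log2 fold change of 1.81 ± 0.11 (SE, n = 2 libraries, edgeR adjusted p = 4.6e-07), and against SC/SGC-like cells, at 56.9 and 42.9 CPM, it was 1.76 ± 0.32 (adjusted p = 7.8e-05). In OHC-like cells *Hk1* was at 51.2 CPM at P14 and 39.7 and 35.1 at P28, and in IHC-like cells at 59.4, 64.0 and 63.9. OHC-like cells were lower in each of the 3 libraries, but the difference missed the threshold (log2 fold change -0.48 ± 0.20, adjusted p = 0.0977). The inducible hexokinase *Hk2* passed it, at 2.66, 10.8 and 5.74 CPM (OHC-like) against 31.7, 39.2 and 42.0 CPM (IHC-like), with a lower level in OHC-like cells (log2 fold change -2.28 ± 0.37, adjusted p = 0.00115). SGN-like cells held 2 and 0 UMIs of *Hk2*.

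*Aldoa* encodes the aldolase of muscle and most tissues and *Aldoc* the brain form. *Aldoa* was at 912 and 897 CPM in SGN-like cells and 286 and 297 CPM in other cells, a log2 fold change of 1.51 ± 0.10 (n = 2 libraries, adjusted p = 1.1e-06). *Aldoc* was at 211 and 180.3 CPM in SGN-like cells and 33.9 and 24.2 CPM in other cells (log2 fold change 2.63 ± 0.17, adjusted p = 7.5e-07). Against SC/SGC-like cells, with 2 and 3 UMIs, the log2 fold change of *Aldoc* was 3.33 ± 0.43 (adjusted p = 5.6e-07). Both aldolases were thus higher in SGN-like cells than in either group. *Aldoc* was also present outside the neurons, at 162 CPM at P14 and 71.2 and 71.7 at P28 in ISC/HeC/OSC-like cells (inner sulcus, Hensen and outer sulcus cells).

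In OHC-like cells *Aldoc* had 0 UMIs at P14, which allows up to 1.60 CPM (3 counts), and 7.23 and 6.45 CPM at P28. In IHC-like cells it was at 19.8 CPM at P14 and 35.1 and 21.9 at P28. OHC-like cells were lower in each library, with a log2 fold change of -2.27 ± 0.54 (n = 3 libraries, adjusted p = 0.00923), and without P28 replicate 1 it was -2.62 (adjusted p = 0.0915). *Aldoa* did not separate the hair cells, where OHC-like cells had 251, 214 and 207 CPM while IHC-like cells had 416, 162 and 177 CPM (log2 fold change 0.12 ± 0.22, adjusted p = 0.717). IHC-like cells were the higher ones at P14 and the lower ones in both P28 libraries. Against the cells other than hair cells, at 363, 387 and 389 CPM, *Aldoa* was lower in OHC-like cells (-0.71 ± 0.12, adjusted p = 0.0120), and without P28 replicate 1 or 2 it was -0.79 (adjusted p = 0.110) or -0.75 (adjusted p = 0.0887).

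*Gapdh* encodes the enzyme that reduces NAD in glycolysis. It was at 711 CPM at P14 and 362 and 331 at P28 in OHC-like cells while IHC-like cells had 1157, 763 and 775 CPM. IHC-like cells were higher in each library, with a log2 fold change of -0.86 ± 0.15 for OHC-like against IHC-like (n = 3 libraries, adjusted p = 0.00165), and without P28 replicate 1 it was -0.83 (adjusted p = 0.0539). In SGN-like cells *Gapdh* was at 1379 and 1279 CPM against 842 and 704 CPM in other cells, the smallest difference of the 9 genes called higher there (0.66 ± 0.12, adjusted p = 0.000777).

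*Pgk1* encodes phosphoglycerate kinase, which makes ATP. Its level was 25.1, 33.7 and 28.0 CPM for OHC-like cells, while IHC-like cells had 119, 94.9 and 109 CPM. These ranges did not overlap, and the log2 fold change was -1.69 ± 0.21 (n = 3 libraries, adjusted p = 0.000212). *Pgk1* stood at 149, 155 and 143 CPM among cells other than hair cells, and the log2 fold change of OHC-like cells against them was -2.31 ± 0.17 (adjusted p = 0.00271). In SGN-like cells it was at 447 and 422 CPM against 98.0 and 93.0 CPM in other cells (2.07 ± 0.10, adjusted p = 1.7e-07).

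The enolases make phosphoenolpyruvate, *Eno1* in most cells and *Eno2* in neurons. *Eno2* was at 925 and 878 CPM in SGN-like cells and at 9.31 and 10.6 CPM in other cells of the same libraries. The log2 fold change of 6.38 ± 0.14 was the largest of the 10 genes in the 5 comparisons (n = 2 libraries, adjusted p = 2.0e-09), and against SC/SGC-like cells, with 2 and 1 UMIs, it was 6.27 ± 0.35 (adjusted p = 1.7e-13). A UMI of *Eno2* was found in 80.8% and 88.5% of SGN-like cells (median depths 9116 and 12481 UMIs) and in 0.402% and 2.91% of macrophage-like cells, which should lack it (2266 and 2081 UMIs). After thinning each cell to 1000 UMIs, with shallower cells left out, the shares were 56.4% of 307 and 48.2% of 299 SGN-like cells and 0% of 218 and 1.37% of 292 macrophage-like cells.

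Low levels of *Eno2* outside the neurons differed between the ages. Other cells had 1.89 CPM at P14 and 9.31 and 10.6 at P28, and the 5 SGN markers in fibroblast-like cells summed to 4.30, 35.6 and 45.3 CPM in the same order of libraries, with 4 of the 5 at 0 at P14. The part of these neuronal transcripts in the low levels was not tested. OHC-like cells had 8.53, 8.03 and 10.8 CPM of *Eno2*, while IHC-like cells had 7.92, 5.16 and 1.68 CPM, too few UMIs for the test between them. Against the cells other than hair cells it was called lower in IHC-like cells (log2 fold change -4.99 ± 0.84, adjusted p = 0.00512), but those cells include the SGN-like cells of P28.

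The comparisons of hair cells were therefore repeated with SGN-like cells left out of the other side, which was chosen after the data were seen. *Eno2* in IHC-like cells was then at -1.26 ± 0.66 (adjusted p = 0.150) and no longer called. *Aldoc* went from -1.48 ± 0.31 (adjusted p = 0.0121) to -0.84 ± 0.35 (adjusted p = 0.0769), and *Pgk1* from -0.70 ± 0.19 (adjusted p = 0.0301) to -0.34 ± 0.19 (adjusted p = 0.186). *Aldoa* in IHC-like cells was called then, at -0.77 ± 0.25 (adjusted p = 0.0322). In OHC-like cells the 6 genes called lower were again called lower, and *Ldhb* was called lower as well (-0.81 ± 0.25, adjusted p = 0.0379).

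*Eno1* was at 119 CPM at P14 and 28.5 and 34.4 at P28 in OHC-like cells, while IHC-like cells had 139, 15.5 and 28.6 CPM. The cells other than hair cells, pooled over their classes, had 356, 56.1 and 63.7 CPM, above both hair cell classes in each library. Classes count in this pool by their UMIs, and ISC/HeC/OSC-like cells gave 2786238 of its 5303389 UMIs at P14. Several classes did not lie above the hair cells. At P14 the *Coch* fibrocyte-like cells, given below, and fibroblast-like, *Abcc9* mesenchymal-like, red blood cell-like and B cell-like cells lay under both hair cell classes. ISC/HeC/OSC-like, DC/PC-like (Deiters and pillar), macrophage-like and RM-like (Reissner's membrane) cells lay above both. At P28 fibroblast-like cells lay under OHC-like cells in both replicates. Some of these levels rest on few UMIs. The log2 fold changes were -1.11 ± 0.22 in OHC-like (n = 3 libraries, adjusted p = 0.0183) and -1.68 ± 0.23 in IHC-like cells (adjusted p = 0.00218), and without P28 replicate 1 the first was -1.31 (adjusted p = 0.0526). In SGN-like cells *Eno1* was at 92.9 and 116 CPM, under their *Eno2* level and above other cells, at 48.9 and 54.3 CPM (0.89 ± 0.13, adjusted p = 0.000186). *Eno1b*, a near-identical copy of *Eno1*, had 13.6, 5.68 and 7.32 CPM in the cells other than hair cells, and reads of both cannot always be told apart. *Gapdh*, *Ldha* and *Pgk1* also have near-identical copies, so their counts are uncertain to that extent.

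The lactate dehydrogenases moved in opposite directions in the neurons. *Ldha* was at 12.3 and 13.2 CPM in SGN-like cells, from 42 and 43 UMIs, and at 102 and 114 CPM in other cells. It was the 1 gene of the 10 called lower in SGN-like cells in each of their comparisons, with log2 fold changes of -3.20 ± 0.14 against other cells (n = 2 libraries, adjusted p = 6.2e-08) and -2.18 ± 0.48 against SC/SGC-like cells (adjusted p = 0.000588), which held 9 and 6 UMIs. With cells thinned to 1000 UMIs too few were left for a test against SC/SGC-like cells. *Ldha* was at 7.70 and 8.21 CPM in the largest SGN-like cluster and at 53.8 and 41.2 CPM in the next, of shallower cells. Single clusters were not compared with SC/SGC-like cells, so the difference from them may not hold in each. *Ldhb* was at 636 and 579 CPM in SGN-like cells against 175 and 169.7 CPM in other cells (1.70 ± 0.10, adjusted p = 6.3e-07). SC/SGC-like cells had 853 and 664 CPM of *Ldhb*, and the difference from SGN-like cells was not called (-0.30 ± 0.17, adjusted p = 0.160). Of the promoters printed above, that of *Ldha* is the one with ACGTG. Windows of *Pgk1* (2 matches) and *Aldoa* (1 match), not printed, held it too, and both genes were higher in SGN-like than in other cells. A link between these letters and the levels was not tested.

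*Ldhb* was the 1 gene of the 10 called higher in OHC-like than in IHC-like cells. It was at 275 CPM at P14 and 83.9 and 92.5 at P28 in OHC-like cells, while IHC-like cells had 107, 49.5 and 47.1 CPM. OHC-like cells were higher in each of the 3 libraries, with a log2 fold change of 1.16 ± 0.17 (adjusted p = 0.000737). OHC-like cells had 41.0, 25.3 and 26.5 CPM of *Ldha*, while IHC-like cells had 91.1, 33.0 and 28.6 CPM, a difference that was not called (-0.42 ± 0.26, adjusted p = 0.243). Both classes were below the cells other than hair cells, at 115, 87.6 and 98.4 CPM, with log2 fold changes of -1.66 ± 0.13 in OHC-like (adjusted p = 0.00335) and -1.40 ± 0.30 in IHC-like cells (adjusted p = 0.0135). The second was -1.29 (adjusted p = 0.107) without P28 replicate 1 and -1.06 (adjusted p = 0.0717) without replicate 2. *Ldhb* in IHC-like cells was also below the cells other than hair cells, at 294, 249 and 232 CPM (-2.27 ± 0.25, adjusted p = 0.000964).

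The share of 1 isozyme within its pair does not depend on how libraries are scaled. No test was made on shares, since 3 libraries against 3, even taken as unpaired, cannot go below p = 0.10 in an exact permutation test. Shares of the same library are paired, which leaves fewer arrangements, and SGN-like shares had 2 libraries. *Ldhb* took 98.1% and 97.8% of the *Ldha* and *Ldhb* UMIs in SGN-like cells and 93.8% and 91.2% in SC/SGC-like cells of P28. Its share was 87.0%, 76.8% and 77.7% in OHC-like cells and 54%, 60% and 62.2% in IHC-like cells, higher in OHC-like cells in each library. In P28 replicate 2 the exact 95% binomial intervals of these shares overlapped, at 70.6% to 83.8% and 46.5% to 76.2%. The IHC-like shares moved under stricter cell limits, as given below, and the order at P28 may not hold there. In macrophage-like cells the share was 34.4%, 27.4% and 35.2%.

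The *Eno2* share of the enolase pair was 90.9% and 88.4% in SGN-like cells. In OHC-like cells it was 6.67%, 22.0% and 23.8%, while the *Eno2* level in CPM given above stayed alike and that of *Eno1* was lower at P28. *Aldoc* took 18.8% and 16.7% of the aldolase UMIs in SGN-like cells, so that *Aldoa* led there too, and 27.2%, 23.8% and 21.8% in ISC/HeC/OSC-like cells. Intervals and limits here cover counting error only, and not the uncertainty from the near-identical copies of *Eno1* and *Ldha*.

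**Figure D3:**
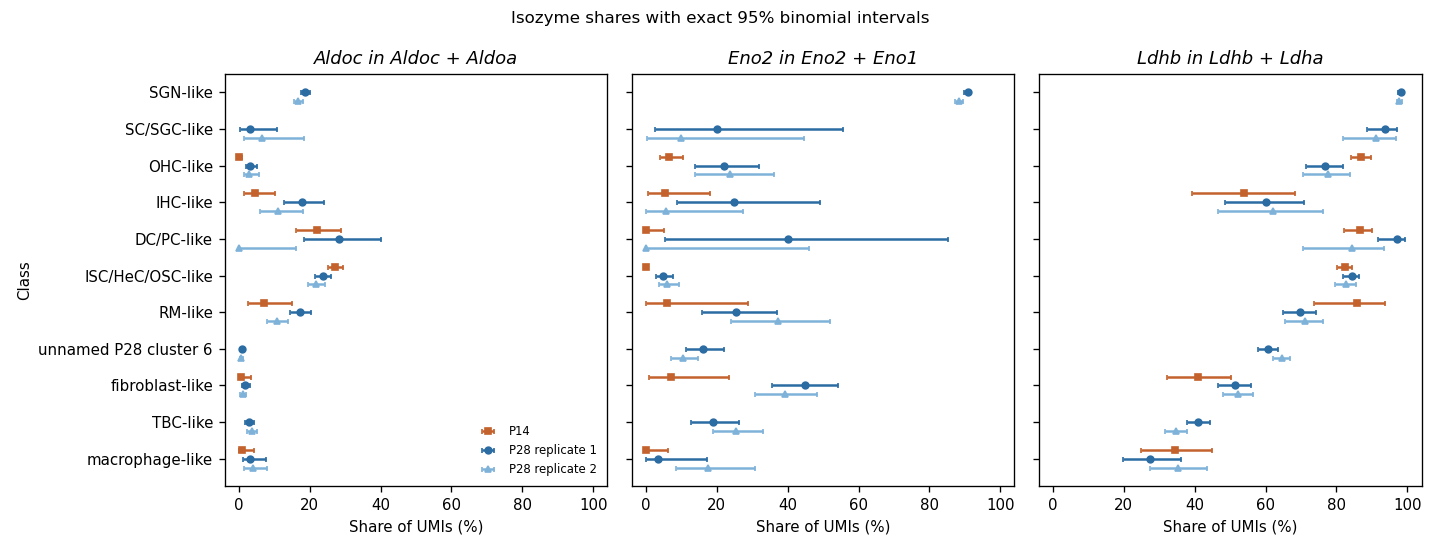
Share of UMIs (x axis, percent) of *Aldoc*, *Eno2* and *Ldhb* in their isozyme pairs for 11 classes (y axis), with a point per library and exact 95% binomial intervals. SGN-like cells lie farthest right in the *Eno2* panel, at 90.9% and 88.4%, and macrophage-like and TBC-like (tympanic border) cells lie farthest left in the *Ldhb* panel.

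*Ckb* was at 1654 and 1519 CPM in SGN-like cells, 1270.2 and 1168 CPM in SC/SGC-like cells and 346 and 375 CPM in other cells. SGN-like cells were above other cells by a log2 fold change of 2.02 ± 0.11 (n = 2 libraries, adjusted p = 3.3e-07). Against SC/SGC-like cells it was 0.41 ± 0.16 (adjusted p = 0.0441), and with the library as a replicate block it was 0.42 (adjusted p = 0.0785), no longer called. The mitochondrial creatine kinase *Ckmt1* was at 244 and 207 CPM in SGN-like cells and 4.23 and 3.43 CPM in other cells (5.75 ± 0.16, adjusted p = 5.0e-09). The other mitochondrial form, *Ckmt2*, had 85 and 77 UMIs in SGN-like cells and 1 and 3 in other cells. Unnamed cluster 6 reached 1716 and 1583 CPM of *Ckb* and, unlike SGN-like cells, 409 and 357 CPM of *Ldha*.

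In hair cells the *Ckb* level differed by library. OHC-like cells had 1297 CPM at P14 and 224 and 240.3 at P28, and IHC-like cells had 1664, 292 and 306 CPM. IHC-like cells were higher in each library, and the difference was not called (log2 fold change -0.22 ± 0.13, n = 3 libraries, adjusted p = 0.234). The cells other than hair cells had 366, 558 and 549 CPM as a pool, so that both hair cell classes lay above it at P14 and below it at P28. The pool differs in make-up between the ages. At P28 alone it holds SGN-like cells and unnamed cluster 6, both far above the hair cells in *Ckb*. Not every class lay above the hair cells at P28, since RM-like and fibroblast-like cells, given below, lay under both hair cell classes. Fitted over the 3 libraries the log2 fold change was -0.24 ± 0.72 in OHC-like (adjusted p = 0.798) and -0.16 ± 0.63 in IHC-like cells (adjusted p = 0.872). With SGN-like cells left out, chosen after the data were seen, edgeR gave 0.0056 ± 0.59 (adjusted p = 0.994) and 0.208 ± 0.455 (adjusted p = 0.738).

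**Figure D4:**
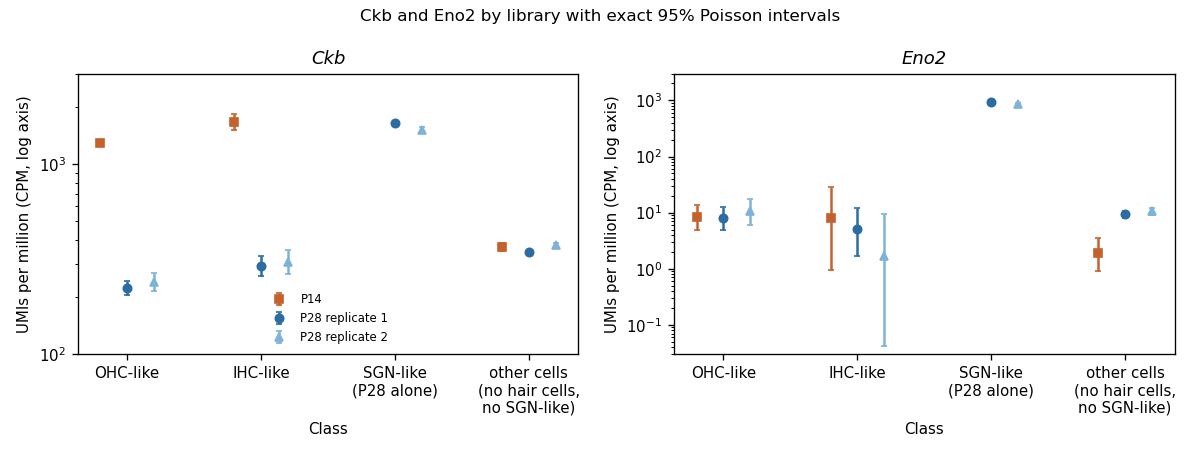
Levels of *Ckb* and *Eno2* (y axis, CPM, log axis) in OHC-like, IHC-like and SGN-like cells and in all other cells, with a point per library and exact 95% Poisson intervals. *Ckb* in both hair cell classes is far higher at P14 (1297 and 1664 CPM) than in either P28 library. The other cells stay close together as a pool, but that pool differs in make-up between the ages. It holds an unnamed cluster with high *Ckb* at P28 only. RM-like and fibroblast-like cells in the pool are also lower in *Ckb* in both P28 libraries, as given below. *Eno2* is near 10 CPM or lower outside the SGN-like cells.

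The ages were set side by side without a test, since P14 has 1 library, and age and library cannot be told apart. A gene was counted where it reached 50 CPM at either age and differed 2-fold or more in the same direction from both P28 libraries. Folds were taken with 1 CPM added to each level. In OHC-like cells 3 of the 6 genes that reached this level were lower at P28 (4.79% of all genes that reached it) and 0 were higher (5.54%). *Ckb* was 5.76 and 5.38 times as high at P14 as in the P28 replicates, *Eno1* 4.08 and 3.40 times and *Ldhb* 3.25 and 2.95 times. *Gapdh*, at 1.96 and 2.14 times, was just outside the rule.

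In IHC-like cells 5 of the 8 genes that reached the level were lower at P28 (8.34% of all genes that reached it) and 0 were higher (13.4%). *Ckb* was 5.68 and 5.42 times as high at P14 as in the P28 replicates, *Eno1* 8.48 and 4.72 times and *Ldha* 2.71 and 3.11 times. *Aldoa* was 2.56 and 2.35 times as high and *Ldhb*, just inside the rule, 2.14 and 2.25 times. The IHC-like cells of P14 were shallower, with a median of 1025.5 UMIs against 9310 and 8007.5 at P28, and with cells thinned to 1000 UMIs 2 of the 5 genes met the rule.

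**Figure D5:**
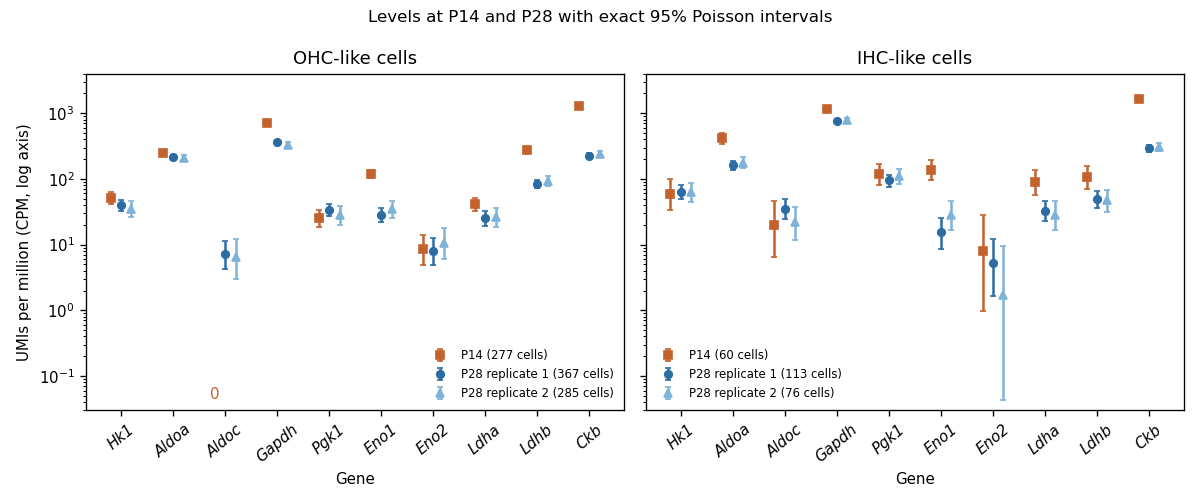
Levels (y axis, CPM, log axis) of the 10 genes in OHC-like and IHC-like cells at P14 and in both P28 libraries, with exact 95% Poisson intervals, where 0 marks a gene with no UMI. *Ckb*, *Eno1* and *Ldhb* are lower in both P28 libraries in both classes, while *Hk1* and *Pgk1* lie close together.

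Before thinning 93.5%, 73.6% and 65.6% of OHC-like cells had a UMI of *Ckb*, and after thinning to 1000 UMIs the shares were 70% of 260, 23.8% of 365 and 23.5% of 285 cells. In IHC-like cells the thinned shares were 90.3% of 31, 29.3% of 99 and 20.8% of 72 cells. The P14 shares were the highest in both classes, and in B cell-like cells, with a low *Ckb* level of 57.6, 54.3 and 82.1 CPM, the thinned shares were 5.77% of 52, 12% of 25 and 5.41% of 37 cells. The 3 OHC-like clusters of P14 had 1435, 1064 and 541 CPM of *Ckb*, the last in 32 nucleus-like cells. The OHC-like clusters of P28 had 249.7 and 279 CPM and 157 and 166 CPM in the replicates, all below those of P14. The median mitochondrial share of OHC-like cells also differed, at 8.61, 13.1 and 12.7 percent, and its part was not tested.

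The lower level of *Eno1* at P28 was not found in hair cells alone. The ages were compared in 8 classes with at least 20 cells in each library and with leading genes shared between the ages. The limit on leading genes was set after the data were seen. The *Coch* fibrocyte-like and *Abcc9* mesenchymal-like cells of P14 shared more leading genes with another class of P28 than with their own, and red blood cell-like cells held 28.7% haemoglobin UMIs at P14 against 70.6% and 63.5% at P28, so these classes were left out. *Eno1* met the 2-fold rule in 8 of the 8 classes, and in ISC/HeC/OSC-like cells it was at 589 CPM at P14 and 72.7 and 77.2 at P28. Some of these classes held few UMIs. *Eno1* and *Eno2* together had 11 at P14 and 3 and 4 at P28 in B cell-like cells, and 72, 5 and 6 in DC/PC-like cells. *Ckb* met it in 4 of the 8, with RM-like cells (Reissner's membrane) at 504 CPM at P14 and 184 and 177 at P28 and fibroblast-like cells at 417 CPM at P14 and 203 and 197 at P28. *Ldhb* was lower at P28 in 3 classes and higher in 1, the B cell-like cells, which had 0 UMIs at P14 (up to 24.7 CPM by the limit of 3 counts) and at P28 32.6 CPM, from 3 UMIs, and 112 CPM. *Gapdh* and *Pgk1* met the rule in 0 of the 8 classes. With the 3 classes left out put back, *Eno1* was lower in 8 of 11, *Ckb* in 4 and *Ldhb* in 3, and *Ldhb* was higher in 3. Of these 3 classes *Eno1* reached 50 CPM only in the *Coch* fibrocyte-like cells, at 71.0 CPM at P14 and 55.5 and 55.5 at P28, which did not meet the rule. Of all genes that reached 50 CPM, the share lower at P28 by the same rule was 12.5% in B cell-like, 9.45% in DC/PC-like (Deiters and pillar), 7.18% in ISC/HeC/OSC-like, 8.53% in RM-like, 6.41% in fibroblast-like and 6.08% in macrophage-like cells. The share higher at P28 was 12.5% in B cell-like, 6.49% in DC/PC-like (Deiters and pillar), 4.80% in ISC/HeC/OSC-like, 8.23% in RM-like, 3.94% in fibroblast-like and 9.18% in macrophage-like cells.

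The other genes of the pathway were taken from a list of 45, from glucose transporters to pyruvate dehydrogenase and creatine synthesis. Between the hair cells 27 of them were tested. OHC-like cells were the higher class for 8 of these and the lower one for 6 (16.8% and 17.1% of all genes), with a median log2 fold change of 0.18 against 0.05 over all genes. *Pfkfb2*, which makes the activator of phosphofructokinase, had 68.8, 99.1 and 103 CPM (OHC-like) against 11.9, 13.4 and 13.5 CPM (IHC-like), without overlap (2.99 ± 0.24, adjusted p = 1.4e-05). The phosphofructokinase *Pfkp* (2.78 ± 0.41, adjusted p = 0.000637) and the monocarboxylate transporter *Slc16a7* (1.87 ± 0.25, adjusted p = 0.000344) were higher as well.

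Of the genes for creatine and adenylate metabolism on the list, *Ckmt1* was higher in OHC-like cells at 1.79 ± 0.25 (adjusted p = 0.000466), *Gamt*, which completes creatine synthesis, was higher at 2.28 ± 0.40 (adjusted p = 0.00181), and the adenylate kinase *Ak1* was higher at 2.34 ± 0.21 (adjusted p = 3.2e-05). *Hif1a*, the hypoxia-inducible factor whose core letters are marked above, was lower in OHC-like cells, with 44.8, 65.4 and 85.3 CPM, while IHC-like cells had 206, 201 and 210.2 CPM (-1.52 ± 0.19, adjusted p = 0.000199).

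Against the cells other than hair cells, OHC-like cells were higher for 4 of 33 pathway genes and lower for 11, and IHC-like cells were higher for 3 of 32 and lower for 12. Over all genes these shares were 23.9% and 29.9% for OHC-like and 13.3% and 22.4% for IHC-like cells. With SGN-like cells left out, chosen after the data were seen, OHC-like cells were higher for 7 and lower for 13 (24.1% and 37.6% of all genes), and IHC-like cells higher for 5 and lower for 10 (17.5% and 28.0%). *Ckmt1*, named here after its values were seen, was then called higher in OHC-like cells, at 3.59 ± 0.25 (adjusted p = 0.000417, against an adjusted p = 0.0637 with them). In IHC-like cells its direction turned, from -0.69 ± 0.56 (adjusted p = 0.385) to 1.83 ± 0.35 (adjusted p = 0.00205). OHC-like cells had 81.5, 64.2 and 77.5 CPM of *Slc16a7*, where the cells other than hair cells had 11.7, 5.25 and 5.96 CPM (3.44 ± 0.29, adjusted p = 0.00352). *Ldhd*, a dehydrogenase of D-lactate, reached 23.8, 51.6 and 62.2 CPM (IHC-like), where the cells other than hair cells had 2.64, 9.27 and 6.76 CPM (2.64 ± 0.28, adjusted p = 0.000788), and was higher in OHC-like cells too (2.21 ± 0.41, adjusted p = 0.0148). *Gatm*, the first enzyme of creatine synthesis, had 0, 0 and 0 UMIs in the IHC-like cells of the 3 libraries and 22.6, 16.4 and 14.9 CPM among cells other than hair cells.

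In SGN-like cells 20 of 37 pathway genes were higher and 9 lower than in other cells (36.2% and 42.4% of all genes). The neuronal glucose transporter *Slc2a3* was at 78.9 and 80.3 CPM against 1.81 and 1.72 CPM (5.37 ± 0.15, adjusted p = 5.0e-09). The lactate transporter *Slc16a1* was at 92.9 and 97.5 CPM against 3.39 and 4.93 CPM (4.39 ± 0.17, adjusted p = 4.4e-08).

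Against SC/SGC-like cells 13 of 33 pathway genes were higher and 4 lower in SGN-like cells (24.5% and 18.1% of all genes). *Gatm* was at 7.60 and 14.5 CPM in SGN-like cells against 549.8 and 386 CPM (-5.42 ± 0.28, adjusted p = 3.5e-14), and *Gamt* was lower too (-5.31 ± 0.51, adjusted p = 4.8e-09). Both enzymes of creatine synthesis were thus higher in the SC/SGC-like cells, where *Ckmt1* had 0 and 0 UMIs. The 6 SC/SGC markers summed to 425 and 694 CPM in SGN-like cells and the 5 SGN markers to 82.1 and 75.0 CPM in SC/SGC-like cells.

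Within the SGN-like class the clusters differed. The largest, of 383 cells, had *Eno2* at 988 and 930.1 CPM and *Ldha* at 7.70 and 8.21 CPM in the replicates. The next, of 189 cells with a median of 1825 UMIs against 15387, had *Eno2* at 628 and 582 CPM and *Ldha* at 53.8 and 41.2 CPM. A cluster of 24 cells led by *Prune2* and *Rph3a* had *Hk1* at 396 and 313 CPM against 179 and 162 CPM in the largest, and *Eno2* at 160.4 and 212 CPM. Of the SGN-like clusters this one had the highest *Hk1* and the lowest *Eno2* level in both libraries.

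Genes of like pattern were sought among 7943 genes over 49 class sums of the 3 libraries, by Pearson's r of log2(CPM + 10). The sums share libraries and differ in depth, so r is a description. Among the genes most like *Eno2* were *Ndrg4* (0.90) and *Mllt11* (0.90), and those most like *Aldoc* were *Snrpn* (0.79), *Phyhipl* (0.78) and *Pclo* (0.74). Those most like *Ldhb* were *Pcbp4* (0.73), *Sod2* (0.72) and *Slc25a4* (0.72), and those most like *Ckb* were *Prnp* (0.74), *Kif1b* (0.72) and *Stx12* (0.71). Among the 10 genes the highest r was that of *Pgk1* and *Gapdh* (0.80), followed by *Ckb* and *Ldhb* (0.71). *Ldha* had an r of -0.02 with *Ldhb* and of -0.38 with *Aldoc*, the lowest of all pairs.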

How the data were processed

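The authors deposited UMI counts per gene and barcode for each 10x Genomics 3′ library, made with Cell Ranger (5.0.1 in the file headers, 6.0.1 in the submitters' processing notes) on mm10. Of the 32285 feature IDs 32158 were in GENCODE M21, which gave gene coordinates. Barcodes with 200 to 6000 genes and at most 15% mitochondrial UMIs were kept. The study's limits of 3000 genes and 15000 UMIs, an alternative, leave 1400, 4829 and 6391 cells.

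Cells were clustered per age with Seurat 5.3.0 in R 4.3.3 (2000 variable genes, 30 principal components, resolution 1) and clusters were named from at least 3 markers. Scrublet (scanpy 1.11.5) called 3, 0 and 1 doublets and so did not work, and leaving out the 8% of cells with the highest scores was an alternative. Counts were summed per class and library and tested with edgeR 4.0.16 (TMM, filterByExpr, quasi-likelihood test, Benjamini-Hochberg over all genes), tested on simulated data first. DESeq2 1.42.0 and other filters, scalings, clusterings and left-out libraries were alternatives.

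Sums of 1 library come from the same mice, which pairs them. Their deviations correlated at r = 0.515, 0.412 and 0.362 for the hair cell classes, 0.246, 0.251 and 0.213 for OHC-like and 0.144, 0.126 and 0.124 for IHC-like with cells other than hair cells, and 0.142 and 0.030 for SGN-like with other and with SC/SGC-like cells. Intervals are exact at 95%.

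The genes and lists were chosen with earlier results of these data known. Named are the 10 genes, at most the 8 pathway genes per comparison with the largest log2 fold change past the threshold, those past 2-fold between ages in hair cells, and the 3 genes most like *Aldoc*, *Eno2*, *Ldhb* and *Ckb*, of which 1 is not reported here.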

Additional observations from a re-analysis of the deposited data

Results flagged for a closer look

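The levels of 2 genes in hair cells, set against the cells other than hair cells of the same library, pointed in opposite directions at P14 and P28. *Eno2* in OHC-like cells stood at a log2 ratio of CPM of 2.18 at P14 and at -4.30 and -3.73 in the P28 replicates. The cells other than hair cells include SGN-like cells at P28 and none at P14. *Ckb* in OHC-like cells stood at 1.82 at P14 and at -1.31 and -1.19 at P28. In IHC-like cells *Ckb* stood at 2.18 at P14 and at -0.93 and -0.84 at P28. With 1 library at P14 these differences between the ages were not tested.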

How the results depend on the processing

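The calls of the 10 genes in SGN-like against other cells, 9 higher and 1 lower, were the same in number under each alternative run. Without the replicate block, OHC-like against IHC-like gave 1699 genes called (3213 with it), of which 0 of the 10 higher and 1 lower, and IHC-like against cells other than hair cells gave 3 of the 10 lower. *Aldoa* between the hair cells then stood at -0.012 (log2), and *Ckb* against cells other than hair cells at 0.32 in OHC-like and 0.43 in IHC-like cells. With a replicate block, SGN-like against SC/SGC-like cells gave 6 of the 10 higher, *Ckb* no longer among them, and the block changed no call of the 10 in SGN-like against other cells.

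With 1 library left out, OHC-like against IHC-like had 1476 to 4907 genes called, with 1 to 3 of the 10 higher and 1 to 5 lower. OHC-like against cells other than hair cells had 2552 to 10452 genes called and 2 to 10 of the 10 lower, and IHC-like 1783 to 7787 and 3 to 9. In each range the highest count came without the P14 library. Directions turned for *Aldoa* between the hair cells (-0.12 to 0.45, with -0.12 without P28 replicate 1 and -0.0033 without replicate 2), for *Ckb* in OHC-like (-1.11 to 0.25, with 0.25 and 0.20) and IHC-like cells (-0.99 to 0.45, with 0.43 and 0.45) and for *Hk1* in IHC-like cells (-0.12 to 0.13, with 0.095 and 0.13). The SGN-like comparisons, with 2 libraries, leave no residual degrees of freedom once 1 is left out, so no such value was made.

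DESeq2 called 2016 genes between the hair cells. With at least 10 UMIs in every sum, where fewer genes were tested, 1679 genes were called between the hair cells, 4416 and 1854 in OHC-like and IHC-like against cells other than hair cells and 1083 in SGN-like against SC/SGC-like cells, the last with 3 of the 10 higher, 0 lower and *Ldhb* at 0.36. At a mitochondrial limit of 30%, 2 of the 10 were lower in SGN-like than in SC/SGC-like cells. Without mitochondrial, ribosomal and haemoglobin genes *Hk1* in IHC-like cells stood at 0.060. With SGN-like cells left out, chosen after the data were seen, *Eno2* and *Ckb* in OHC-like cells stood at 0.27 and 0.0056, and *Hk1* and *Ckb* in IHC-like cells at 0.25 and 0.21. None of the values that turned direction had been called in the fits as reported.

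Limits of 3000 genes and 15000 UMIs and thinning to 1000 UMIs, both of which remove or shorten deep cells, moved more of these values than the other alternatives with all 3 libraries. Under the first, 916 genes were called between the hair cells, 5305 in SGN-like against other cells and 1773 against SC/SGC-like cells (0 of the 10 lower, with *Ldha* too low to test). *Aldoa* between the hair cells was -0.11, *Ckb* in OHC-like cells 0.12, and *Hk1* and *Ckb* in IHC-like cells 0.12 and 0.82, with 1 of the 10 higher. Thinned, the genes called were 911, 4565, 2397, 6782 and 1799 in the 5 comparisons in the order of the report (0 of the 10 lower in the last, for the same reason), with *Hk1* and *Ckb* at 0.058 and 0.16 in OHC-like and *Ckb* at 0.12 in IHC-like cells. The genes 2-fold lower at P28 in IHC-like cells were 3 under the limits, 2 thinned and 3 without the cells of highest doublet score.

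Under the same limits the *Aldoc* share was 0% at P14 and 4.76% at P28 in IHC-like and 15.1% in SGN-like cells, the *Eno2* share 41.7% in IHC-like (P28) and 83.5% in SGN-like cells, and the *Ldhb* share 28.6% (P14) and 81.2% (P28) in IHC-like and 94.8% in SGN-like cells. Thinned, the *Aldoc* share was 0% in IHC-like (P14) and 14.3% in SGN-like cells, the *Eno2* share 16.7% in OHC-like (P14) and 86.9% in SGN-like cells, and the *Ldhb* share 87.3% in OHC-like (P28), 96.7% in SGN-like cells and 50% in the cells of cluster 18 of P14. The IHC-like *Ldhb* share at P28 under the limits was above the 76.8% and 77.7% of OHC-like cells without them. The higher OHC-like share at P28 may therefore not hold under these limits, but shares taken under unlike limits do not settle it. The IHC-like shares also rest on few UMIs. Without the limits *Ldha* and *Ldhb* together had 50 at P14 and 80 and 45 at P28, and *Eno1* and *Eno2* 37, 20 and 18. The limits, which remove deep cells, leave fewer. The causes of these moves were not tested.

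The main limits are the single P14 library, the few IHC-like cells (60 at P14) and the 2 libraries behind each SGN-like comparison. Each library pools animals, so no p-value measures the spread between animals. In the hair cell comparisons, with the library as a block, p-values measure how far the class difference varied between libraries. Those libraries also differ in age, so that variation mixes differences between pools with differences between ages. In the SGN-like comparisons, without a block, p-values measure the spread between the pools within a class. The quasi-likelihood fit also shares spread across genes, so small p-values do not rest on the few libraries alone. The SC/SGC-like class gave few UMIs, which limits *Aldoc*, *Eno2* and *Ldha* there.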

Other observations

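Of the pathway genes, 3 of the 14 that reached 50 CPM in OHC-like cells were 2-fold lower at P28 and 0 were higher (4.79% and 5.54% of all genes). *Mpc1*, a subunit of the mitochondrial pyruvate carrier, was at 382 CPM at P14 and 102 and 99.7 at P28 in OHC-like cells. *Pdhb*, a subunit of pyruvate dehydrogenase, was at 200.4 CPM at P14 and 74.3 and 80.3 at P28 and *Gamt* at 61.8 CPM at P14 and 22.9 and 17.2 at P28. The P14 library was thus the highest for each of the 3.

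In IHC-like cells 3 of 14 were lower at P28 and 1 was higher (8.34% and 13.4% of all genes). *Pdhb* was at 293 CPM at P14 and 68.1 and 77.4 at P28, as in OHC-like cells highest at P14. *Pfkl*, a phosphofructokinase, was at 67.3 CPM at P14 and 10.3 and 23.5 at P28, and *Pdk3*, a kinase that inhibits pyruvate dehydrogenase, at 67.3 CPM at P14 and 33.0 and 28.6 at P28. *Ldhd* was the higher one, at 23.8 CPM at P14 and 51.6 and 62.2 at P28. These values have no test, since P14 has 1 library.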
